A study of Mus musculus with 6 samples.

Results

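Npas4 and 9 activity-induced effector genes, Arc, Homer1, Nptx2, Nrn1, Vgf, Scg2, Pcsk1, Inhba and Rgs2, were followed in RNA-seq of cultured mouse cerebellar granule cells (GCs) after KD of YTHDF2, a cytoplasmic protein that binds m6A-modified mRNA. The question was whether the low level of early transcription factors in the KD libraries extended to effector genes. The 10 genes were picked by name, with their differences between these libraries already known, and each was found as 1 of the 53421 rows of the count table. Their differences between the groups are therefore given as a description, and the counts of these genes past a threshold, printed beside the share of all genes, are part of it and support nothing. Of the 10 genes, 9 passed the filter on low counts, as did 17214 genes in all, and Inhba did not. GCs came from C57BL/6 wild-type pups of postnatal day 8 by the labels. All cultures received a lentivirus and puromycin, so both groups share infection and drug selection. The virus encoded a hairpin RNA that targets Ythdf2 in 3 libraries (shYthdf2) and a control hairpin in the other 3 (shCtrl). The KD rests on 1 hairpin, and the libraries are numbered 1, 2 and 4 in both groups.

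Neuronal activity opens calcium channels and NMDA receptors, and the calcium that enters activates CaM kinases, ERK and calcineurin. These act on factors that are already present, such as CREB, MEF2 and SRF, which switch on early genes within minutes. Npas4 is an early factor that responds selectively to calcium entry in neurons, pairs with ARNT or ARNT2 and controls genes that adjust synapses, among them Bdnf. The effectors are proteins of the synapse (Arc, Homer1, Nptx2), secreted or surface factors (Vgf, Scg2, Nrn1, Inhba), an enzyme that matures prohormones (Pcsk1) and a brake on G protein signalling (Rgs2).

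The KD libraries were taken from the library names, because the sample titles assign the groups the other way round. If the titles were right, every direction below would be inverted. The target itself was lower in the libraries named as KD. Ythdf2 had 500.8, 402.3 and 501.0 normalized counts in shYthdf2 replicates 1, 2 and 4 and 618.3, 840.8 and 628.4 in shCtrl, which is 67.3% of the shCtrl mean (log2 fold change -0.57, standard error 0.16, edgeR adjusted p = 0.125). DESeq2 gave an adjusted p of 0.0406, and the range over the alternatives was 0.00124 to 0.363. Within replicate numbers, Ythdf2 had 81.01%, 47.85% and 79.72% of its shCtrl counterpart for replicates 1, 2 and 4, so replicate 2 differed most. Its log2 fold change was -0.319 without replicate 2 in both groups. The libraries held 17246821 to 21546595 counts. Replicates 1 and 4 of a group lay close to each other and replicate 2 lay apart in both groups. In a chi-square of counts per degree of freedom, replicates 1 and 4 differed by 3.38 in shYthdf2 and 4.75 in shCtrl. Replicate 2 differed from these by 33.7 and 35.7 in shYthdf2 and by 54.8 and 56.2 in shCtrl. Between shYthdf2 replicate 2 and shCtrl replicate 2 the value was 23, the smallest of all pairs with a replicate 2 library. Each result below is therefore also given within replicate numbers or without replicate 2 where that changes it.

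The promoters are shown first because CREB binds the cAMP response element (CRE), a well known calcium-responsive element of activity-induced genes. RefSeq windows on GRCm38.p6, from 250 bases before to 50 bases after a gene's start, were given for 6 of the 10 genes (Homer1 with 2 windows, Inhba, Npas4, Pcsk1, Rgs2 and Scg2). The core of the CRE, TGACGT or its reverse complement ACGTCA, was found in windows of 5 of these 6 genes, and the full CRE, TGACGTCA, which holds the core on both strands, in those of Pcsk1 and Scg2. The stretches of 30 bases that hold every core match are printed 5′ to 3′ on the gene's strand, with the matches in capitals.
Npas4: ccgttcgACGTCAcgggaTGACGTcggaag
Scg2: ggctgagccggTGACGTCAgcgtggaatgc
Pcsk1 (first): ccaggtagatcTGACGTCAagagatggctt
Pcsk1 (second): ctttcgtcgattTGACGTgtaaacactcat
Homer1 (first): aagcTGACGTgagcggagggTGACGTatgt
Homer1 (second): agaggagcgcgcTGACGTtgctatttaaag
Rgs2: gatgcggcgcctACGTCAacagcgccctcg

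The Npas4 stretch (chr19:4990129-4990158, minus strand) holds 2 cores on opposite strands, the first 180 bases before the RefSeq start. It lies in the first exon of the GENCODE transcript Npas4-201, which begins further upstream. The Scg2 stretch (chr1:79440076-79440105, minus strand) begins its CRE 68 bases before the RefSeq start and lies in the first exon of Scg2-201. The Pcsk1 stretches (chr13:75089768-75089797 and chr13:75089795-75089824, plus strand) lie upstream of the gene, with the full CRE 78 bases and a further core 50 bases before the start. The Homer1 stretches (chr13:93303697-93303726 and chr13:93303731-93303760, plus strand) lie at the start of transcript Homer1-207, and their first cores begin 56 and 14 bases before it. The Rgs2 stretch (chr1:144004318-144004347, minus strand) lies upstream of the gene, with its core at 186 bases. Over windows, the core was present in 5 of 7 (71.4%), against 7.51% of 32851 windows of all genes and 10 of 30 windows (33.3%) of the early factors described below. The full CRE was present in 2 of 7 (28.6%), against 1.79% of all windows and 2 of 30 windows (6.67%) of the early factors. For the other activity-induced genes described below, the core was in 8 of 32 windows (25.0%) and the full CRE in 3 (9.38%). The second Homer1 window and the Inhba window held 0 cores.

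The other elements searched on both strands were the AP-1 site (TGACTCA or TGAGTCA), the E-box (CACGTG), the serum response element and the core TCGTG that bHLH-PAS factors such as NPAS4 bind. The first 3 had 0 matches in the 7 windows, against 5.2%, 7.15% and 1.63% of all windows. TCGTG was found in 1 of the 7 windows (14.3%), that of Rgs2, against 16.0% of all windows. A match describes these letters only, and nothing about the binding of a factor was measured.

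Npas4 (ENSMUSG00000045903, chr19:4984355-4990316 of GRCm38) differed most between the groups among the 10 genes. It had 240.5, 215.2 and 269.6 normalized counts in shYthdf2 replicates 1, 2 and 4, and 9838, 1926 and 9753 in shCtrl. All shYthdf2 libraries lay below all shCtrl libraries, and shCtrl replicate 2 stood far below the other two shCtrl libraries. The means were 241.8 ± 27.2 and 7172 ± 4544 (SD, n = 3). This left 3.37% of the shCtrl mean, a log2 fold change of -4.89 (standard error 0.62). Within replicate numbers the shYthdf2 library had 2.44%, 11.2% and 2.76% of its shCtrl counterpart for replicates 1, 2 and 4. The spread sat in the control group, where the coefficient of variation was 63.4% against 11.3% in shYthdf2.

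**Figure D1:**
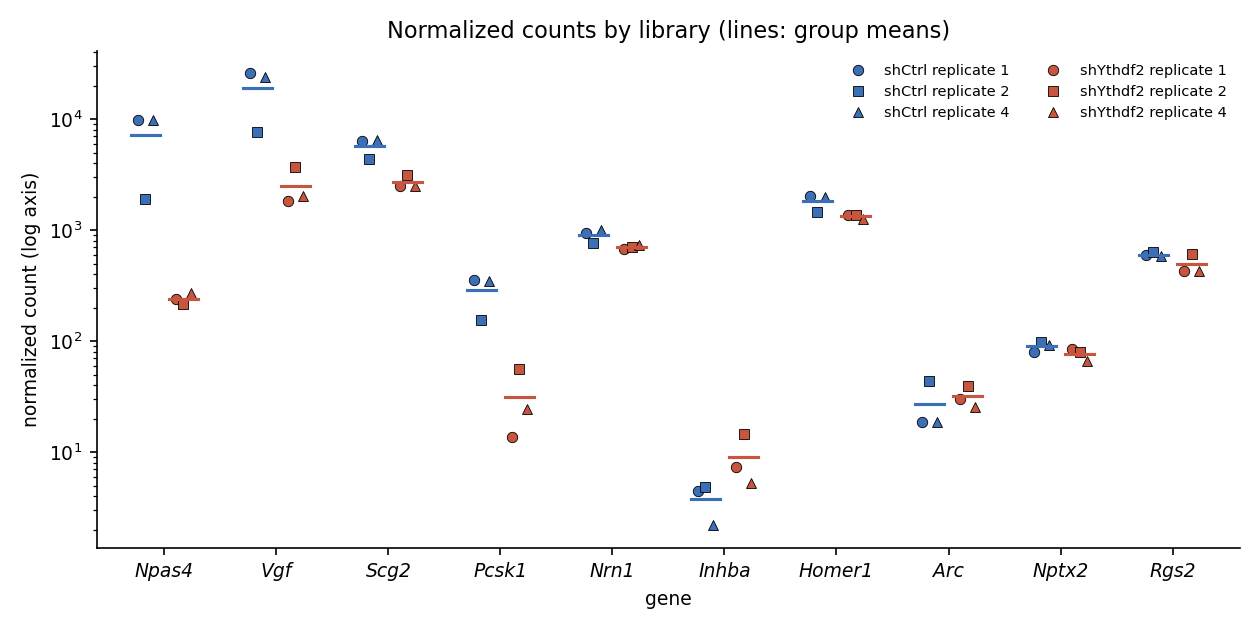
Normalized counts (log axis) of the 10 genes in each library, with shCtrl in blue, shYthdf2 in red, a symbol for each replicate number and a line at each group mean. The shYthdf2 libraries of Npas4, Vgf, Scg2 and Pcsk1 all sit below the shCtrl libraries, where the square of replicate 2 is the lowest, and counts should be compared within a gene because they are not per length.

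The effectors of the regulated secretory pathway showed the next largest differences. Vgf (ENSMUSG00000037428, chr5:137026392-137033351) encodes a granin-like precursor of secreted peptides that neurotrophins and activity induce. Its normalized counts were 1838, 3704 and 2031 in shYthdf2 replicates 1, 2 and 4, and 25890, 7719 and 24120 in shCtrl. The groups did not overlap, but in replicate 2 the shYthdf2 library was the highest of its group and the shCtrl library the lowest of its own. The means were 2525 ± 1026 and 19240 ± 10020 (SD, n = 3), and the fitted difference was -2.93 on the log2 scale (standard error 0.49). The shYthdf2 library had 7.10% and 8.42% of its counterpart in replicates 1 and 4 and 48.0% in replicate 2.

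Pcsk1 (ENSMUSG00000021587, chr13:75089826-75134861) encodes prohormone convertase PC1/3, which cleaves precursors such as those of Vgf and Scg2 in dense-core vesicles. It had 13.6, 56.2 and 24.4 normalized counts in shYthdf2 replicates 1, 2 and 4, and 358.4, 155.0 and 351.5 in shCtrl. Again the groups did not overlap and the libraries of replicate 2 stood closest to each other, at 36.3% of the shCtrl value against 3.79% and 6.94% in replicates 1 and 4. Its log2 fold change over all libraries was -3.18 (standard error 0.54), and the coefficient of variation in shYthdf2 was 70.6%.

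Scg2 (ENSMUSG00000050711, chr1:79434669-79440120) encodes secretogranin II, a dense-core vesicle granin and the precursor of secretoneurin. Its normalized counts were 2494, 3164 and 2477 in shYthdf2 replicates 1, 2 and 4, and 6400, 4371 and 6482 in shCtrl. All shYthdf2 libraries were below all shCtrl libraries, and 47.2% of the shCtrl mean was left (log2 fold change -1.08, standard error 0.18). Within replicate numbers the share was 39.0%, 72.4% and 38.2%.

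Nrn1 (ENSMUSG00000039114, chr13:36725361-36735131) encodes neuritin, a small surface-anchored protein that promotes neurite growth and synapse maturation. It had 678.6, 709.7 and 729.1 normalized counts in shYthdf2 replicates 1, 2 and 4, and 952.7, 772.1 and 1003 in shCtrl. The groups were close but did not overlap, and 77.6% of the shCtrl mean was left (log2 fold change -0.37, standard error 0.13). Nrn1 overlaps Fars2 on the other strand, and whether the counting used strand is not given in the sources used here, but Fars2 had at most 224 counts in a library where Nrn1 had 649 to 1074.

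Inhba (ENSMUSG00000041324, chr13:16011851-16031621), which encodes the βA chain of activin A, had few reads. There were 7, 15 and 5 raw counts in shYthdf2 replicates 1, 2 and 4, and 5, 5 and 2 in shCtrl, or 7.32, 14.5 and 5.31 against 4.44, 4.84 and 2.20 normalized counts. The normalized values of the groups did not overlap, with shYthdf2 above, but Inhba was removed by the low count filter and no fold change was fitted.

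Of the synaptic effectors, Homer1 (ENSMUSG00000007617, chr13:93299635-93405129) encodes a postsynaptic scaffold that links metabotropic glutamate receptors to calcium stores, and activity induces its short form Homer1a, which uncouples them. It had 1383, 1360 and 1262 normalized counts in shYthdf2 replicates 1, 2 and 4, and 2043, 1456 and 1998 in shCtrl. The groups did not overlap, by a narrow margin at replicate 2, and 72.9% of the shCtrl mean was left (log2 fold change -0.46, standard error 0.14). Counts per gene do not separate the short induced form from the long constitutive forms, so the short form was not measured on its own.

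Arc (ENSMUSG00000022602, chr15:74669083-74672570), a capsid-like protein that drives the removal of AMPA receptors from synapses, is among the most strongly induced genes of forebrain neurons. In these GC cultures it was low, with 17 to 45 raw counts in a library. Its normalized counts were 30.3, 39.8 and 25.5 in shYthdf2 replicates 1, 2 and 4, and 18.6, 43.6 and 18.7 in shCtrl. The groups overlapped, and the highest library of each group was replicate 2. Within replicate numbers the shYthdf2 library had 162.8%, 91.2% and 136.4% of its shCtrl counterpart. Over all 3 libraries a group this gave 0.24 on the log2 scale (standard error 0.42), whereas leaving out shCtrl replicate 2 gave 0.77 (standard error 0.32).

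Nptx2 (ENSMUSG00000059991, chr5:144545902-144557478), a secreted pentraxin that clusters AMPA receptors, also overlapped. It had 85.7, 79.5 and 66.9 normalized counts in shYthdf2 replicates 1, 2 and 4, and 79.8, 98.8 and 92.3 in shCtrl (log2 fold change -0.22, standard error 0.21). Rgs2 (ENSMUSG00000026360, chr1:143999338-144004161) speeds the shut-off of Gq signalling. It had 430.8, 616.6 and 432.0 normalized counts in shYthdf2, and 597.0, 631.6 and 582.2 in shCtrl. Replicates 1 and 4 of Rgs2 were lower in shYthdf2, whereas the libraries of replicate 2 were nearly equal (97.6%), and the groups overlapped (log2 fold change -0.29, standard error 0.16). Without shYthdf2 replicate 2 the log2 fold change of Rgs2 was -0.49 (standard error 0.10).

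Of the 9 genes tested, 8 had a log2 fold change below 0 and 1 above it, with a median of -0.46, against a median of 0.01 over all 17214 genes. In the edgeR test over all genes, 1 of the 9 (Npas4) had an adjusted p under 0.05 and was lower, where 0.36% of all genes were called lower. No overlap between the groups, with shYthdf2 below, was seen for 6 of the 9 (Npas4, Homer1, Nrn1, Vgf, Scg2 and Pcsk1), against 13.4% of all genes. The genes were picked with this contrast known, so nothing is read from these shares. The number called changed with the library left out. Without shCtrl replicate 2 it was 6, all lower, where 8.84% of all genes were called lower. Without replicate 2 in both groups it was 7, all lower, where 27% were called lower. Without shYthdf2 replicate 2 it was 4, all lower (2.82% of all genes). Without any 1 of the other 4 libraries edgeR called 0 of the 9, and 0 over all genes.

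The levels of different genes were compared per length, as normalized counts scaled to exon length and library size (RPKM). In shCtrl, Vgf stood highest at 341.3 ± 177.7 RPKM (SD, n = 3) and ranked 49 among 16613 genes. It was followed by Scg2 (120.6 ± 25.1, rank 230) and Npas4 (91.4 ± 57.9, rank 346), whose libraries overlapped. Nrn1 (21.3), Rgs2 (8.77), Homer1 (8.07), Pcsk1 (2.71), Nptx2 (1.88), Arc (0.465) and Inhba (0.0316) came next in mean RPKM. Of these neighbours, Rgs2 and Homer1, and Pcsk1 and Nptx2, did not differ beyond the spread of their libraries. In shYthdf2, Scg2 (56.9 ± 8.22 RPKM, rank 667) and Vgf (44.8 ± 18.2, rank 961) led and overlapped. Npas4 stood at 3.08 RPKM (rank 9506), below Nrn1, Rgs2 and Homer1, and Pcsk1 at 0.296 RPKM (rank 15437), overlapping Arc.

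**Figure D2:**
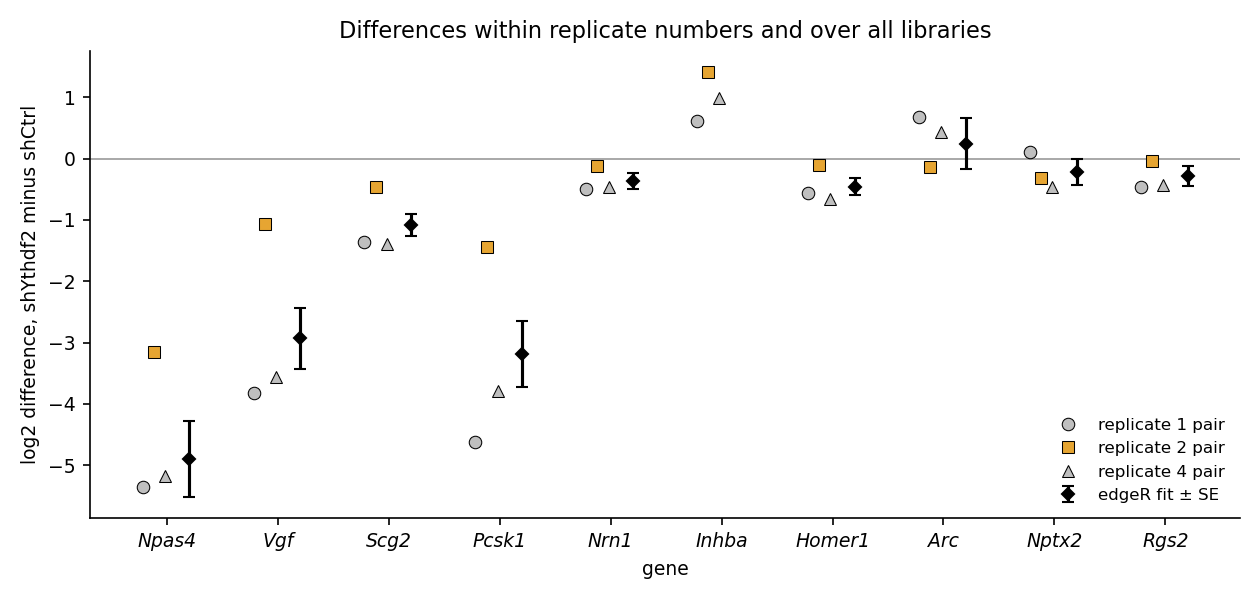
Difference between the shYthdf2 and shCtrl libraries of each replicate number in log2(normalized count + 1), with the edgeR log2 fold change ± SE as black diamonds for the 9 genes tested. For Npas4, Vgf, Scg2 and Pcsk1 the replicate 2 pair (orange) is at -3.16, -1.06, -0.47 and -1.45, nearer to 0 than the pairs of replicates 1 and 4.

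For the genes with the largest differences, the pair of replicate 2 differed least. On the scale of log2(normalized count + 1), the difference of Npas4 was -5.35, -3.16 and -5.17 for replicates 1, 2 and 4. That of Vgf was -3.81, -1.06 and -3.57, and that of Pcsk1 was -4.62, -1.45 and -3.79. For Ythdf2 it was -0.30, -1.06 and -0.33, so there the pair of replicate 2 differed most. The relation between these differences was not tested. In the shCtrl group, replicate 2 lay between the shYthdf2 mean and the mean of shCtrl replicates 1 and 4, at 56.1% of that distance for Npas4, 49.9% for Vgf, 55.5% for Scg2 and 67.7% for Pcsk1. For Homer1 and Nrn1 it lay nearer to shYthdf2, at 21.1% and 27.6%. It was the lowest shCtrl library for 6 of the 9 genes tested and for 21 of the 25 early factors (84.0%), against 44.4% of all genes.

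Markers of other cells moved with shCtrl replicate 2 as well. The labelled cell type was plain in its markers, as the 9 of mature GCs (Zic1, Neurod1, Rbfox3 and others) summed to 140600 to 141700 normalized counts in shYthdf2 and 141500 to 158100 in shCtrl. The 7 oligodendrocyte markers summed to 13070 to 17490 in shYthdf2 and 4836 to 16740 in shCtrl, and the 6 markers of astrocytes and Bergmann glia to 8840 to 9445 and 4752 to 10630. The 5 microglial markers summed to 204.6 to 439.4 and 91.2 to 359.4. Those of GABAergic interneurons, 6 genes, summed to 7602 to 9238 in shYthdf2 and 6367 to 6998 in shCtrl, with no overlap between the groups. Gad1, the gene of an enzyme that makes GABA, made up the largest part, with means of 4640 in shYthdf2 and 3300 in shCtrl. It had 143.4%, 142.1% and 136.1% of its shCtrl counterpart for replicates 1, 2 and 4. Its groups did not overlap, as for 12.6% of all genes with shYthdf2 above, and those of every other marker in this list overlapped. Of the 6 log2 fold changes, 4 were above 0 and 2 below, those of Slc6a5 (-0.62) and Pvalb (-0.18). In every list but that of Purkinje cells the highest shCtrl value was that of replicate 2, the shCtrl library with the least Npas4. No marker was at 0 in all libraries, though Cldn5 of endothelium had at most 1.10 normalized counts. Of the 53 markers of 9 cell types, 49 were tested and 0 were called by edgeR, where 0.604% of all genes were called. Their log2 fold changes had a median of 0.31. Of the 49, 6 had an unadjusted p under 0.05 (3 of them higher), against 3461 of all 17214 genes. DESeq2 called 4 (7.67% of all genes). Without shCtrl replicate 2, edgeR called 20 of 50, of which 16 were higher, where 18.3% of all genes were called, and the median was 0.67. Without shYthdf2 replicate 2 it called 1 (4.7% of all genes). Among markers averaging at least 50 normalized counts, those furthest from 0 included Eomes of unipolar brush cells (-1.80, edgeR adjusted p = 0.0502) and Lum of fibroblasts (1.13, adjusted p = 0.357). Eomes was below 0 in all alternatives and passed the threshold in some, with an adjusted p of 1.7e-07 with DESeq2 and, with edgeR, 0.0463 with at least 10 counts in every library, 0.00119 with no filter except a count above 0, 0.0235 without shYthdf2 replicate 2 and 0.00753 without shCtrl replicate 2. The part of these cells in the differences of the 10 genes was not tested. In bulk RNA, fewer cells of a type and less RNA per cell cannot be told apart.

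The early transcription factors were represented by 26 genes, and 25 passed the filter. All 25 had log2 fold changes below 0 in the edgeR fit, with a median of -1.42. With library size alone and with the replicate block it was 24 of 25, without shCtrl replicate 2 it was 24 of 26, and without replicate 2 in both groups 25 of 26. Of the 25, 3 were called, all lower, where 0.36% of all genes were called lower. Nr4a3, an orphan nuclear receptor, fell with a log2 fold change of -3.44 (edgeR adjusted p = 0.043). The AP-1 subunit gene Fosl2 fell by 2.51 on the log2 scale (edgeR adjusted p = 0.0447), and Ier2, an early response gene, fell by 1.48 (edgeR adjusted p = 0.0496). Fos had 2677, 1361 and 2675 normalized counts in shYthdf2 and 22260, 6553 and 21720 in shCtrl (log2 fold change -2.91, edgeR adjusted p = 0.0539), with no overlap. With the replicate number as a block, 7 of the list were called lower (0.819% of all genes), Fos, Fosb, Junb, Egr2, Nr4a2, Ier2 and Per1, of which Ier2 alone was shared with the calls made without the block. Without shCtrl replicate 2, 21 of 26 were called lower, where 8.84% of all genes were. Leaving out replicate 1 or 4 of either group gave 0, as over all genes. The list was drawn up with the earlier results known.

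The median difference of the early factors was -1.71, -0.71 and -1.50 in log2(normalized count + 1) for replicates 1, 2 and 4, and that of the 9 genes tested here was -0.56, -0.31 and -0.66. Over all genes it was 0.01, 0.00 and 0.00. For replicates 1, 2 and 4, 7, 9 and 8 of the 9 genes were lower in the shYthdf2 library. For the 25 early factors it was 24, 23 and 24, and for all 17214 genes 8486, 8479 and 8575. In replicate 2 the shYthdf2 library still had 97.6% of its counterpart for Rgs2, 93.4% for Homer1, 91.9% for Nrn1 and 91.2% for Arc. The genes were picked with this contrast known, so nothing is read from these counts.

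**Figure D3:**
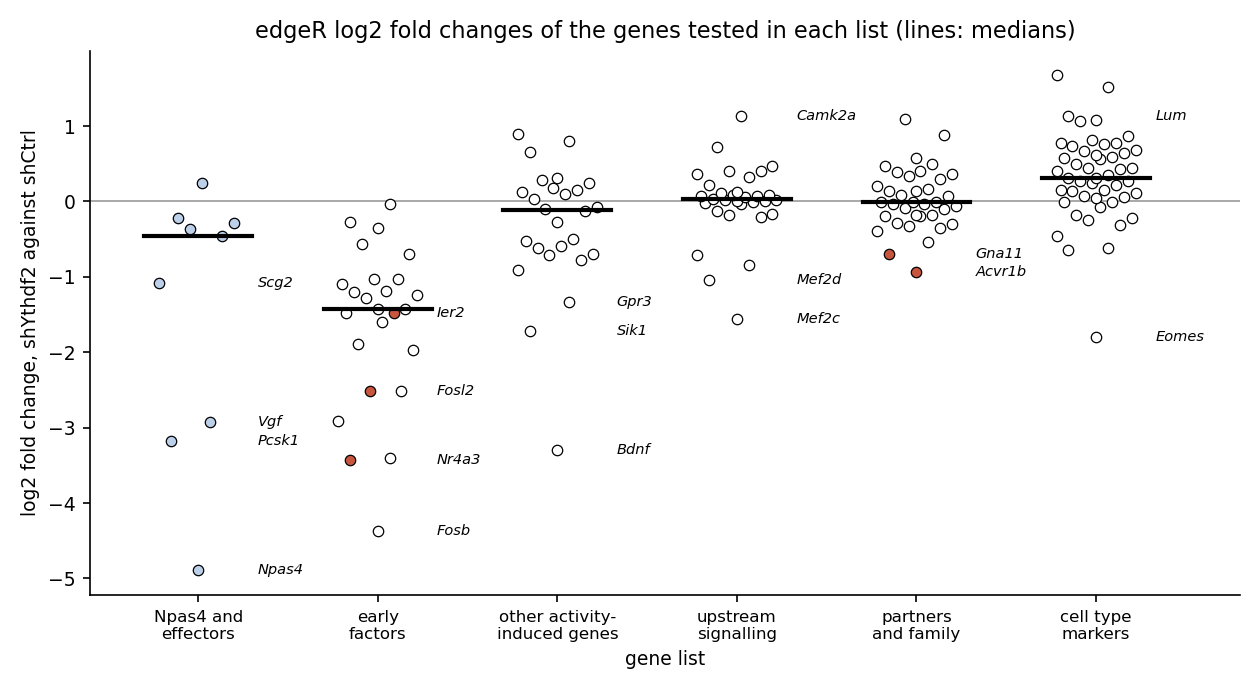
The edgeR log2 fold change of every gene tested in Npas4 and its effectors, the early factors, 3 further lists and the cell type markers, with a line at each median. Filled red points are genes with an adjusted p under 0.05, a colour not used for Npas4 and the effectors (blue), whose differences are a description. The medians are -0.46, -1.42, -0.12, 0.03, -0.01 and 0.31 from left to right.

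A further list held 30 other activity-induced genes, of which 26 were tested. By edgeR, 0 were called (9 at an unadjusted p under 0.05, 7 lower and 2 higher), where 0.604% of all genes were called. Over all 17214 genes, 3461 had an unadjusted p under 0.05, 1826 lower and 1635 higher. DESeq2 called 5, all lower, against 4.52% of all genes. Of the 26, 15 lay below 0 and 11 above, with a median of -0.12. Bdnf, a neurotrophin and a target of NPAS4, had 30.3, 69.8 and 21.2 normalized counts in shYthdf2 and 530.4, 149.2 and 521.8 in shCtrl, with no overlap (log2 fold change -3.29, edgeR adjusted p = 0.0584). Sik1, a kinase that restrains CREB coactivators, had a log2 fold change of -1.72 (edgeR adjusted p = 0.137), and Gpr3, a constitutively active receptor that raises cAMP in GCs, of -1.34 (edgeR adjusted p = 0.0731). With the replicate block, these last genes, Sik1 and Gpr3, were called lower (adjusted p = 0.045 and 0.0445). Without shCtrl replicate 2, 7 of 27 were called, where 18.3% of all genes were, and without shYthdf2 replicate 2 the count was 4 of 27, where 4.7% of all genes were called. Within the list, the 7 neuropeptides and secreted factors tested had a median of 0.25 and the 19 enzymes, kinases and regulators a median of -0.27.

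The signalling upstream of Npas4 was represented by 31 genes of calcium entry, kinases, calcineurin and constitutive transcription factors, all of them tested. By edgeR 0 were called, where 0.604% of all genes were, and the median was 0.03. Of the 31, 10 had an unadjusted p under 0.05 (6 higher and 4 lower), against 3461 of all 17214 genes. DESeq2 called 8, against 7.67% of all genes. The furthest from 0 were Mef2c (-1.56, edgeR adjusted p = 0.0589), Camk2a, a kinase activated by calcium and calmodulin (1.14, adjusted p = 0.0913), and Mef2d (-1.04, adjusted p = 0.0527). MEF2 factors bind the regulatory regions of many activity-induced genes. With the replicate block, 3 of the 31 were called (1.35% of all genes), Camk2a higher and Mef2d and Mrtfa, a coactivator of SRF, lower. Without shCtrl replicate 2, 10 of the 31 were called (18.3% of all genes), and without shYthdf2 replicate 2, 2 were (4.7% of all genes).

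The partners and relatives of the 10 genes formed a list of 41, of which 37 were tested and 2 were called, both lower (0.36% of all genes were called lower), with a median of -0.01. Acvr1b, a type I activin receptor, fell with a log2 fold change of -0.93 (edgeR adjusted p = 0.0299), from 3044, 2862 and 3035 normalized counts in shCtrl to 1601, 1415 and 1671 in shYthdf2. Gna11, a G protein alpha chain of the Gq class on which RGS2 acts, fell by 0.70 on the log2 scale (edgeR adjusted p = 0.0402), from 3047, 3140 and 2991 to 1882, 1944 and 1814. Both had replicate 2 libraries close to the rest of their group. Without shCtrl replicate 2, 10 of 37 were called (18.3% of all genes), and without shYthdf2 replicate 2 the count was 4 (4.7% of all genes). Leaving out replicate 1 or 4 of either group gave 0, as over all genes. Arnt2, the partner of NPAS4, had 2936, 3038 and 3018 against 3084, 2994 and 3146 in shCtrl (log2 fold change -0.04, standard error 0.08, edgeR adjusted p = 0.837).

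The relatives of each effector were measured beside it. In the Homer family the log2 fold changes were 0.50 for Homer2 and -0.33 for Homer3 (edgeR adjusted p = 0.184 and 0.255). Neither overlapped between the groups, with shYthdf2 above for Homer2 and, as for Homer1, below for Homer3. Over all genes, 12.6% did not overlap with shYthdf2 above and 13.4% with shYthdf2 below. In replicate 2 the shYthdf2 library had 106.8% of its counterpart for Homer2 and 92.2% for Homer3. The other pentraxins, Nptx1 and the receptor Nptxr, stood at -0.08 and -0.31 (adjusted p = 0.898 and 0.256). Among the constitutive granins and their helpers, Chga, Chgb and Scg3 stood at -0.20, -0.40 and -0.09, and Scg5 (the chaperone 7B2) and Pcsk2, the convertase PC2, at 0.39 and 0.21, with edgeR adjusted p-values of 0.35 to 0.593. None of these 5 passed the threshold, and their groups overlapped. Those of Vgf, Scg2 and Pcsk1, picked with their differences known, did not overlap. The overlap of Chga and Chgb lay in replicate 2. For replicates 1, 2 and 4, Chgb had 60.6%, 108.1% and 60.3% of its shCtrl counterpart, and Chga 78.9%, 104.2% and 78.7%. Scg3 had 92.2%, 100.2% and 89.0%. Scg5 and Pcsk2 were above their counterparts in every replicate, at 108.4% to 148.8%. The difference between the families was not tested. For activin, Inhbb stood at 0.17 and the receptor Acvr2a at 0.40 (adjusted p = 0.849 and 0.218), and the antagonist Fst did not pass the count filter, with at most 10.5 normalized counts. Rgs4, a relative of Rgs2, stood at 0.14 (adjusted p = 0.819).

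The genes most like Npas4 over the 6 libraries were found by the root mean square distance between log2(normalized count + 1) profiles, each centred on its own mean, among 17213 other genes. The 5 nearest were Mir132 (0.602), Mir212 (0.742), Nr4a3 (0.767), Nr4a1 (0.779) and Neb (0.897). Mir132 and Mir212 are neighbouring miRNA precursor genes on chromosome 11, a pair known to be induced by CREB, and counts on these short rows do not separate the precursor from its primary transcript. Mir132 had 4.18, 4.85 and 4.25 normalized counts in shYthdf2 and 92.3, 29.1 and 83.5 in shCtrl. Mir212 had 58.6, 33.0 and 49.9, and 718.5, 145.3 and 652.5. Nr4a1 had 666.0, 543.9 and 712.2, and 9494, 1553 and 9218. Neb, the gene of the muscle filament protein nebulin, had 185.1, 442.1 and 167.7, and 3196, 924.1 and 3312. In every one of these, replicate 2 was the lowest shCtrl library, as for Npas4. This likeness follows from the choice of the genes by closeness to Npas4 over the same libraries, and nothing is read from it. Of the effectors, Pcsk1 and Vgf were 8th and 9th in this order, at distances of 0.975 and 0.981, and Scg2 came 234th. Homer1, Nrn1, Rgs2 and Nptx2 lay between places 1419 and 5289, and Arc at 14968.

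**Figure D4:**
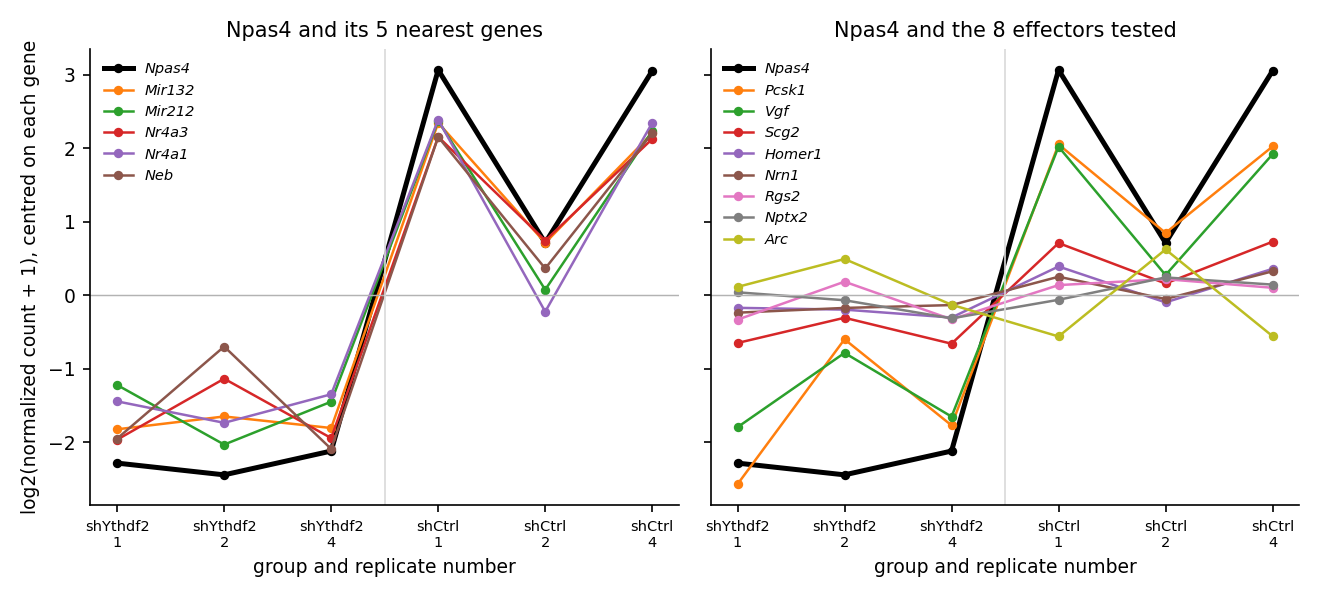
Log2(normalized count + 1) of each gene, centred on its mean over the 6 libraries, for Npas4 with its 5 nearest genes (left) and for Npas4 with the 8 effectors tested (right). The lines only link the points of a gene, since libraries have no order. Pcsk1 and Vgf follow Npas4 most closely among the effectors, and Arc is highest in shCtrl replicate 2, where Npas4 is lowest among the shCtrl libraries.

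YTHDF2 binds m6A, which is placed within a sequence context whose most frequent form is GGACT, so this letter string was counted on the sense strand of the longest coding transcript of each gene, together with ATTTA, the core of AU-rich elements of unstable mRNAs. Npas4-201 held 9 GGACT in 3622 bases, or 2.48 per kb, a density above that of 95.3% of 13719 genes. Scg2-201 and Nrn1-204 held 0 and Vgf-204 held 1. The median over the 9 genes was 0.794 per kb, against 1.05 per kb over all genes and 1.40 over the early factors. In the coding sequence alone these medians were 0.777, 1.07 and 0.969 per kb, so the early factors then lay below all genes. ATTTA was densest in Homer1-204, a transcript with the short coding sequence (558 bases), with 19 matches or 3.33 per kb, above 98.1% of genes, and in Pcsk1-201, with 14 or 2.78 per kb. Arc-201 held 0, and the median was 1.12 per kb against 0.803 over all genes. These are counts of letters, and m6A was not measured in these libraries.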

How the data were processed

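Cultured GCs were sequenced as 3 shYthdf2 and 3 shCtrl libraries, grouped by library name. The authors deposited counts of reads per gene, as whole numbers without normalization. By the paper's methods, reads were filtered, aligned with HISAT and TopHat2 (GRCm38) and assigned to genes with HTSeq, whereas the submitters' processing notes name mm9 and Bowtie 0.12.2. The methods name a NEBNext kit and the labels a TruSeq kit, and strand use is not given in the sources used here. The methods call the replicates biological, but which cultures they came from is not given, so p-values measure the spread between these libraries. Of 53421 rows, 52403 matched a symbol and 785 lie outside the annotation.

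Genes were kept by filterByExpr (minimum count 10, total 15), which left 17214 genes and 99.8% of the counts. They were tested with edgeR 4.0.16 (TMM, quasi-likelihood F-test, R 4.3.3), with Benjamini-Hochberg adjustment over all genes tested. Normalized counts were scaled by TMM to 1 library size, RPKM values divide them by the exon length of GENCODE M21, and log2 values of single libraries carry a pseudocount of 1. The tests were checked on simulated data. The 10 genes and all lists were chosen with earlier results of these data known. The text names all 10 genes, fixed partners, each list's genes at an adjusted p under 0.05 or otherwise its 3 largest changes (genes averaging 50 normalized counts or more), and the 5 genes nearest to Npas4. One gene that this rule names is not reported here. Other genes named were chosen after their values were seen.

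Same-numbered libraries deviated together from their group means (Pearson's r over genes of 0.25, 0.361 and 0.305 for replicates 1, 2 and 4). These r values depend on each other, because the deviations within a group sum to 0. Differently numbered libraries were not compared, so the values do not establish pairing by number. The number was also tried as a block. Other alternatives were RLE size factors, library size alone, DESeq2 1.42.0, limma-voom (limma 3.58.1), other count filters and each library left out. A batch term for replicate 2 and leaving out replicate 2 in both groups were chosen after seeing the data. The depth of 17246821 to 21546595 counts limits genes with few counts. Sequences were searched with Python 3.11.15 and plots drawn with matplotlib 3.10.9.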

Additional observations from a re-analysis of the deposited data

How the results depend on the processing

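Each of the 9 genes tested kept its sign in all 15 alternatives, below 0 for 8 and above 0 for Arc. Npas4 ranged from -5.34 (without shCtrl replicate 2) to -4.56 (limma-voom) on the log2 scale, and Pcsk1 from -4.22 (without replicate 2 in both groups) to -2.83. The calls moved far more than the values.

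The numbers called among the 9 genes with Npas4, the early factors, the other activity-induced genes, the upstream genes and the partners were 1, 3, 0, 0 and 2. They were 4, 17, 5, 8 and 3 with DESeq2, 0, 0, 0, 0 and 2 with limma-voom, and 4, 12, 5, 5 and 3 with no filter except a count above 0. A batch term for replicate 2 gave 6, 18, 8, 11 and 13, and leaving out replicate 2 in both groups gave 7, 24, 17, 22 and 26. With the replicate block they were 1, 7, 2, 3 and 2, and the block changed no call among the 9 genes. Leaving out each library in turn gave 0 to 6, 0 to 21, 0 to 7, 0 to 10 and 0 to 10. The highest counts came without shCtrl replicate 2, and the 0 counts without replicate 1 or 4 of either group, when 0 genes were called in all. Over all genes tested, edgeR called 104 (0.604%), DESeq2 1321 (7.67%) and limma-voom 24 (0.139%). With edgeR it was 639 (1.98%) without the filter, 131 (0.862%) with at least 10 counts in every library and 232 (1.35%) with the block. The batch term gave 3799 (22.1%) and leaving out replicate 2 in both groups 9186 (52.7%). Without shCtrl replicate 2 it was 3239 (18.3%), and without shYthdf2 replicate 2 it was 829 (4.7%). The cause was not tested.

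Ythdf2 passed the threshold with DESeq2 (-0.575, adjusted p = 0.0406), with the batch term (-0.565, edgeR adjusted p = 0.0465) and without replicate 2 in both groups (-0.319, edgeR adjusted p = 0.00124). Its log2 fold change was -0.66 to -0.41 with 1 library left out. Nptx1 reversed to 0.234 without replicate 2 in both groups. With library size alone, 47 genes were called lower and 61 higher, against 62 and 42 in the TMM fit. Of the 5 genes nearest to Npas4, 1 was also among the nearest when profiles were centred within groups. Depth limits Inhba and Arc, which had at most 15 and 45 counts in a library.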
